A study of Homo sapiens with 16 samples.

Results

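The genes described here are RUNX1, CBFB, RUNX1T1, MYH11 and ETV6, the core binding factor and ETV6 genes of leukaemia translocations, and what was measured in them is the number, position and value of TOP2A cleavage cluster regions (CCRs). A CCR is a short stretch of DNA recovered in excess with immunocaptured TOP2A, the alpha form of DNA topoisomerase II. A region was counted for a gene when its centre lay in the RefSeq gene body or within 2 kb of either end. The 5 genes were chosen by name, out of 20037 protein-coding genes. They held 449 of the 1469949 CCRs summed over 5 lists. MYH11 held none, in a stretch of chromosome 16 that no list covered, so values could be given for 4 of the 5 genes.

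The cells were K562, grown from a human chronic myeloid leukaemia with the BCR-ABL1 fusion. Cells received etoposide (25 µM, 1 h), genistein (50 µM, 1 h), mitoxantrone (2 µM, 1 h), p-benzoquinone (8 µM, 4 h) or the vehicle alone. All cells were in 0.05% DMSO, which the poison-treated cells shared with the vehicle cells. Exposure to p-benzoquinone was the longest, and the labels do not say which vehicle library matches which time. The authors deposited 1 list per treatment, made from 3 etoposide, 2 genistein, 1 mitoxantrone, 2 p-benzoquinone and 3 DMSO amplified libraries, so the lists give no spread between cultures. Intervals below are therefore 95% intervals for counting error in the number of regions only. The reads carry no molecular identifiers, so PCR copies cannot be told from separate molecules. The lists hold no expression, so the identity of the cells could not be checked against markers. A single line was used throughout.

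Core binding factor is a heterodimer of a DNA-binding RUNX protein and its partner CBFB, and RUNX1 with CBFB is needed for the formation of blood stem cells. Translocations fuse RUNX1 to the corepressor RUNX1T1, also called ETO, CBFB to the smooth muscle myosin heavy chain MYH11, and RUNX1 to the ETS-family repressor ETV6. TOP2 cuts both strands of a duplex to let another pass, TOP2 poisons hold the enzyme on the cut DNA, and leukaemias after treatment with such drugs can carry translocations of RUNX1.

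RUNX1 spans chr21:34787801-35049302 in hg38 on the minus strand, and its transcription can begin at a distal promoter at the right end of that span or at a proximal promoter inside it. ETV6 spans chr12:11649674-11895377 on the plus strand. The sequences just before the RefSeq starts are shown because the CCR lists were read at these starts. They are the 250 bases before the proximal RUNX1 start (chr21:34888700-34888949, minus strand) and the 250 bases before the ETV6 start (chr12:11649424-11649673, plus strand). Both come from RefSeq (GRCh38.p14) and are written 5′ to 3′, with capitals marking the CGGAA core that ETS factors bind.
RUNX1: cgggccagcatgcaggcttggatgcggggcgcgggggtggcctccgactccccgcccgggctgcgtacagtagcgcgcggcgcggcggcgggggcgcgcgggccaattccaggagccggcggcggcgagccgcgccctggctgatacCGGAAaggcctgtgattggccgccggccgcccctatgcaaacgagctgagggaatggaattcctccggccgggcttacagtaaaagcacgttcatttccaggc
ETV6: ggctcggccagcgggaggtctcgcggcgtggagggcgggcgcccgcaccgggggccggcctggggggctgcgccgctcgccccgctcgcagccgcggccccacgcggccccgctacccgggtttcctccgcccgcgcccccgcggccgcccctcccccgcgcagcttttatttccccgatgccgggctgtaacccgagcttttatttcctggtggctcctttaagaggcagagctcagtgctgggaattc

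Both stretches were rich in G and C. The GC content was 71.2% before the RUNX1 start and 74.4% before the ETV6 start, against a median of 62.4% over 15843 protein-coding promoters. Each held 32 CpG dinucleotides, against a median of 17, more than 87.8% of those promoters held. Both strands were searched for the RUNX cores TGTGGT and TGCGGT and for CGGAA, none of which overlapped another. The RUNX1 stretch held 1 CGGAA, with its first base 103 bases before the start, and neither RUNX core. The ETV6 stretch held none of the 3 motifs. Over 27305 promoter stretches of the same length, 10.9% held TGTGGT, 5.69% held TGCGGT and 30.7% held CGGAA.

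CCRs lay away from the proximal RUNX1 start and, but for 1, from the ETV6 start. In RUNX1 no list had a region within 1 kb of the proximal start, and the nearest one lay 21975 bp away in the etoposide list, 4345 bp in the genistein list, 7432 bp in the mitoxantrone list, 4713 bp in the p-benzoquinone list and 5290 bp in the DMSO list. In ETV6 the etoposide list had 1 region within 1 kb, at chr12:11648480-11648846 with a value of 14.9, which ended 828 bp before the start. The nearest ETV6 region of the other lists lay 2595 bp away with genistein, 5379 bp with mitoxantrone, 12806 bp with p-benzoquinone and 7418 bp with DMSO. Of 15134 measured genes with a listed start, the share with a region within 1 kb was 12.5% with etoposide, 23.2% with genistein, 11.6% with mitoxantrone, 31.6% with p-benzoquinone and 22.6% with DMSO. Most genes therefore had no region there either. The distal RUNX1 start is not in the promoter table, but within 1 kb of the right end of the gene body lay a genistein region at chr21:35049739-35049861, with a value of 6.43, and a p-benzoquinone region that overlaps it, at chr21:35049687-35049911, with a value of 3.86. The etoposide, mitoxantrone and DMSO lists had no region within 1 kb of that end inside the window.

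RUNX1, the DNA-binding subunit, held 13 CCRs in the etoposide list, 35 in the genistein list, 19 in the mitoxantrone list, 55 in the p-benzoquinone list and 35 in the DMSO list. Because the lists differ in length (182582 etoposide, 415215 genistein, 202865 mitoxantrone, 359249 p-benzoquinone and 310038 DMSO regions), each number was divided by the length of the window and by the mean density of its list, and this relative density is 1 at the list mean. For RUNX1 it was 0.741 (0.395 to 1.27) with etoposide, 0.877 (0.611 to 1.22) with genistein, 0.975 (0.587 to 1.52) with mitoxantrone, 1.59 (1.20 to 2.07) with p-benzoquinone and 1.17 (0.818 to 1.63) with DMSO. Only in the p-benzoquinone list did the interval leave out the list mean. The order was p-benzoquinone, DMSO, mitoxantrone, genistein, etoposide, and the interval of every list overlapped that of every other.

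CBFB, the partner that stabilises RUNX proteins on DNA, lies at chr16:67029149-67101058 and is the shortest of the genes, with a window of 75.9 kb. It held 4 CCRs with etoposide, 11 with genistein, 0 with mitoxantrone, 6 with p-benzoquinone and 9 with DMSO. The relative density was 0.797 (0.217 to 2.04) with etoposide, 0.964 (0.481 to 1.73) with genistein, 0.608 (0.223 to 1.32) with p-benzoquinone and 1.06 (0.483 to 2.01) with DMSO. The empty mitoxantrone list allows a relative density of up to 0.538 at 3 counts, or 0.662 at the upper end of its 95% interval. Both limits lie inside the intervals of the other 4 lists. Among 5929 genes whose window was 0.5 to 2 times as long, this 0 stood at percentile 1.82 with ties at mid-rank, so other genes of that length were at 0 too.

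RUNX1T1, the corepressor joined to RUNX1 by t(8;21), lies at chr8:91954967-92103385. It held 16 CCRs with etoposide, 24 with genistein, 13 with mitoxantrone, 26 with p-benzoquinone and 19 with DMSO. Its relative density was 1.59 (0.908 to 2.58) with etoposide, 1.05 (0.671 to 1.56) with genistein, 1.16 (0.619 to 1.99) with mitoxantrone, 1.31 (0.857 to 1.92) with p-benzoquinone and 1.11 (0.669 to 1.73) with DMSO. All 5 values were above 1 and all 5 intervals held 1, so no order among the lists could be told beyond counting error. Etoposide gave the highest value, which stood at percentile 91.5 of 3703 genes of like length.

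ETV6, the ETS repressor, held 15 CCRs with etoposide, 45 with genistein, 15 with mitoxantrone, 53 with p-benzoquinone and 36 with DMSO. Its relative density was 0.909 (0.509 to 1.50) with etoposide, 1.20 (0.875 to 1.60) with genistein, 0.818 (0.458 to 1.35) with mitoxantrone, 1.63 (1.22 to 2.14) with p-benzoquinone and 1.28 (0.900 to 1.78) with DMSO. The p-benzoquinone value was again the highest and the one whose interval left out 1. It stood at percentile 88.1 of 2326 genes of like length, and the RUNX1 value at percentile 87.1 of 2160 such genes. Over all 18973 measured genes the median relative density in the p-benzoquinone list was 1.12, above that of the other lists (0.911 etoposide, 0.920 genistein, 0.882 mitoxantrone, 1.00 DMSO). The median over the 4 genes was 0.853 with etoposide, 1.01 with genistein, 0.896 with mitoxantrone, 1.45 with p-benzoquinone and 1.14 with DMSO.

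MYH11, the smooth muscle myosin heavy chain fused to CBFB by inv(16), lies at chr16:15703135-15857028. It had 0 regions in all 5 lists. The whole stretch chr16:14416215-16999058, 2.58 Mb with 24 protein-coding genes inside it, held no region of any list. This 0 was therefore not read as a measurement of MYH11, which was left out of the densities and ratios. The lists had 50 such inner stretches of 1 Mb or more, and over the whole genome 1064 protein-coding genes had under 50% of their window in 100 kb bins that held a region of any list and were not measured.

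**Figure D1:**
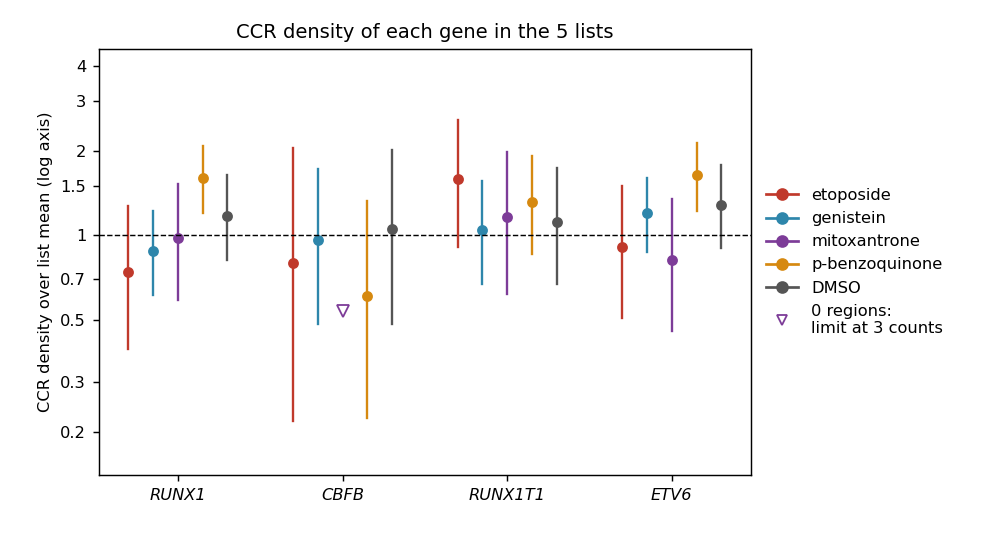
CCR density of RUNX1, CBFB, RUNX1T1 and ETV6 over the mean density of each list, on a log axis, with points for the values, bars for 95% Poisson intervals of the count and a dashed line at the list mean. The p-benzoquinone points of RUNX1 (1.59) and ETV6 (1.63) lie above the line with their whole bars; the open triangle is the 3-count limit (0.538) for CBFB, which held 0 mitoxantrone regions.

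Each poison was then set against DMSO to ask whether the genes gained or lost CCRs beyond the change in list length. The lowest value of a list was 3.72 with genistein and 3.87 with mitoxantrone, but 1.82 with etoposide, 1.82 with p-benzoquinone and 1.84 with DMSO. The genistein and mitoxantrone ratios below therefore also compare lists that start at unlike values. RUNX1 held 0.631 (0.306 to 1.22) of its DMSO number with etoposide after scaling to list length, 0.747 (0.454 to 1.23) with genistein, 0.830 (0.448 to 1.49) with mitoxantrone and 1.36 (0.872 to 2.14) with p-benzoquinone. For ETV6 the scaled ratio over DMSO was 0.708 (0.360 to 1.32) with etoposide, 0.933 (0.589 to 1.49) with genistein, 0.637 (0.324 to 1.19) with mitoxantrone and 1.27 (0.817 to 2.00) with p-benzoquinone. In both genes the only poison with a ratio above 1 was p-benzoquinone, but every interval held 1.

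RUNX1T1 had a ratio of 1.43 (0.688 to 2.94) with etoposide, 0.943 (0.495 to 1.82) with genistein, 1.05 (0.475 to 2.23) with mitoxantrone and 1.18 (0.629 to 2.26) with p-benzoquinone. Its etoposide ratio stood at percentile 87.9 of 4381 genes, while that of RUNX1 stood at percentile 18.97. CBFB had a ratio of 0.755 (0.170 to 2.70) with etoposide, 0.913 (0.344 to 2.49) with genistein and 0.575 (0.169 to 1.81) with p-benzoquinone, and it held 0 CCRs with mitoxantrone against 9 with DMSO, a ratio of 0 whose interval ended at 0.774. That was the one ratio of the 4 genes whose interval left out 1, and with fewer than 10 CCRs in both lists it did not enter the count below. Over the 4 genes together the ratio was 0.823 (0.571 to 1.17) with etoposide, 0.867 (0.657 to 1.15) with genistein, 0.726 (0.501 to 1.04) with mitoxantrone and 1.22 (0.937 to 1.60) with p-benzoquinone. The median ratio over all genes was 0.926 with etoposide, 1.03 with genistein, 0.917 with mitoxantrone and 1.10 with p-benzoquinone.

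A gene was counted as past 1.5-fold when it held at least 10 CCRs in either list and its scaled ratio was at least 1.5 or at most 1 over 1.5. With etoposide 1 of 3 such genes, RUNX1, was lower by this rule, and 22% of all 4381 genes were. With mitoxantrone 1 of 3, ETV6, was lower, and 24.7% of 4453 genes were. With genistein 0 of 4 passed in either direction, against 32.9% of 5662 genes, and with p-benzoquinone 0 of 3, against 34.9% of 5769 genes. With 3 or 4 genes in a count, 1 gene more or less decides how such a share compares with that over all genes, and nothing was read from it. No replicate check exists for any of these ratios, since each treatment was 1 list.

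**Figure D2:**
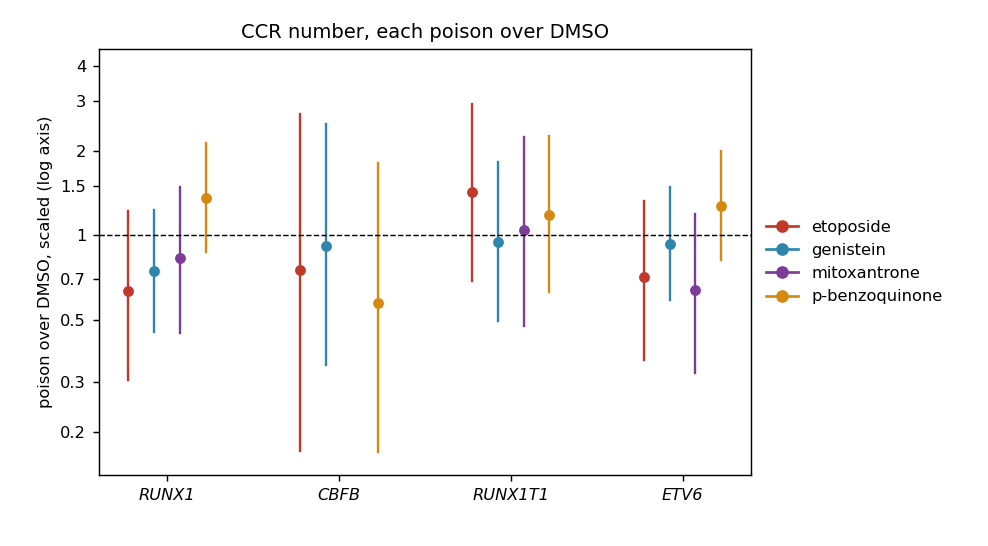
CCR number of each poison over DMSO, scaled to list length, on a log axis, with bars for exact 95% binomial intervals and a dashed line at 1. CBFB with mitoxantrone (0 against 9 regions) has no point. All bars shown cross the line; the lowest points among genes with at least 10 CCRs are RUNX1 with etoposide (0.631) and ETV6 with mitoxantrone (0.637).

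The ETV6 ratios depended on which regions were counted. With only regions of value 4 or more, ETV6 stood at 1.10 of DMSO with etoposide, 1.22 with genistein, 0.817 with mitoxantrone and 1.62 with p-benzoquinone, so the direction turned for etoposide and genistein. The mitoxantrone ratio was then no longer past 1.5-fold. Such values were held by 18 of the 36 DMSO regions of ETV6 and 14 of its 15 mitoxantrone regions. The deposited values lie on steps, and the DMSO and etoposide lists each mix values of a coarse and of a fine step, with a coarse step of 0.338 and a fine step of 0.23 in the DMSO list. Genistein and mitoxantrone were set against the coarse DMSO values and p-benzoquinone against the fine ones. Each value of a joined region counted on its own, and coarse values below 4 and all values of 20 or more were left out. Values that matched no step or both were left out of the DMSO and etoposide lists (19.5% and 18.8% of values below 20). The genistein, mitoxantrone and p-benzoquinone values were not sorted by step, so their class ratios set unsorted values against sorted DMSO values. In the coarse class ETV6 held 11 etoposide values against 5 DMSO values, a scaled ratio of 2.30 (0.736 to 8.44), 35 genistein values (2.23, 0.869 to 7.28) and 14 mitoxantrone values (1.91, 0.651 to 6.79). In the fine class ETV6 held 2 etoposide values against 21 DMSO values, a scaled ratio of 0.309 (0.0351 to 1.26), and 53 p-benzoquinone values (0.911, 0.540 to 1.59). The part of this mixture in the whole-list ratios of ETV6 was not tested. For RUNX1 the etoposide ratio was below 1 in both classes, with 5 against 12 coarse values (0.435, 0.120 to 1.33) and 2 against 18 fine values (0.360, 0.0405 to 1.50). The RUNX1 ratio was 0.583 (0.276 to 1.29) with genistein and 0.683 (0.281 to 1.66) with mitoxantrone in the coarse class. With p-benzoquinone it was 1.14 (0.663 to 2.06) in the fine class, against 1.36 in the whole lists. These classes were drawn after the data were seen.

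Each gene was next set against the 500 kb on either side of it in the same list, which share its copy number more closely than the genome does. ETV6 stood above its surroundings beyond counting error with genistein, p-benzoquinone and DMSO, and not with etoposide or mitoxantrone. Its density over the flanks was 1.16 (0.598 to 2.12) with etoposide, 1.48 (1.02 to 2.12) with genistein, 0.998 (0.521 to 1.80) with mitoxantrone, 2.81 (1.92 to 4.11) with p-benzoquinone and 1.72 (1.12 to 2.61) with DMSO. The p-benzoquinone value was higher than in 99.9% of genes of like length, the DMSO value than in 96.5%, the genistein value than in 93.6%, the etoposide value than in 64.0% and the mitoxantrone value than in 43.6%. Of the 1000 kb of ETV6 flanks, 847.7 kb lay in callable sequence, and the rest was left out.

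RUNX1T1 stood at 1.75 (0.941 to 3.08) times its flanks with etoposide, 0.943 (0.588 to 1.45) with genistein, 1.09 (0.557 to 1.98) with mitoxantrone, 1.80 (1.12 to 2.80) with p-benzoquinone and 1.06 (0.614 to 1.72) with DMSO. The p-benzoquinone value passed its flanks beyond counting error and was higher than in 96.3% of genes of like length. RUNX1 did not: its ratio to the flanks was 0.690 (0.350 to 1.26) with etoposide, 0.935 (0.626 to 1.36) with genistein, 1.01 (0.574 to 1.69) with mitoxantrone, 1.14 (0.830 to 1.56) with p-benzoquinone and 0.903 (0.606 to 1.31) with DMSO. The flanks of RUNX1 were themselves dense in the p-benzoquinone list, at 18.1 CCRs per 100 kb against a list mean of 13.0. CBFB stood at 0.423 (0.153 to 0.937) of its flanks with p-benzoquinone, below them beyond counting error, at 0.659 (0.175 to 1.75) with etoposide, 1.19 (0.578 to 2.20) with genistein and 0.980 (0.438 to 1.92) with DMSO. With mitoxantrone it was at 0, with an interval that ended at 0.782.

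Of the 4 measured genes, 2 were denser than their flanks with etoposide, 2 with genistein, 2 with mitoxantrone, 3 with p-benzoquinone and 2 with DMSO. Over 6552 genes the share was 53.4% with etoposide, 61.2% with genistein, 55% with mitoxantrone, 56.5% with p-benzoquinone and 54.9% with DMSO. A count among 4 genes is too coarse to set against these shares, and nothing was read from it. It also changed with flanks of 200 kb or 1 Mb in every list but genistein.

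**Figure D3:**
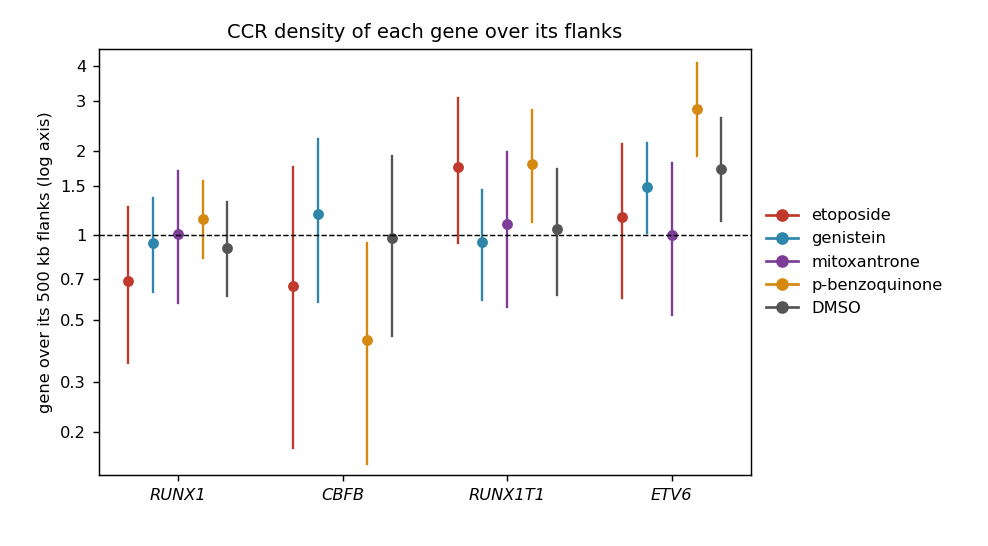
CCR density of each gene over that of the 500 kb on either side in the same list, on a log axis, with bars for exact 95% binomial intervals and a dashed line at equal density. ETV6 is at 2.81 with p-benzoquinone and 1.72 with DMSO, RUNX1T1 at 1.80 with p-benzoquinone, and CBFB at 0.423 with p-benzoquinone; CBFB with mitoxantrone, at 0, has no point.

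Along RUNX1, CCRs were spread over the whole body, with the most in the last 10% of the body in the direction of transcription. This 3′ stretch held 25 of the 154 regions of all lists in the body, against 15.4 if they were even and a range of 8 to 25 over the 10 equal stretches of the body. It held 6 of 13 etoposide regions, 4 of 34 genistein regions, 2 of 19 mitoxantrone regions, 6 of 53 p-benzoquinone regions and 7 of 35 DMSO regions. The etoposide and DMSO lists thus had their highest number there, and the mitoxantrone list had about its even number of 1.9.

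The longest stretch of RUNX1 without any region of any list was 11.95 kb, at chr21:34867813-34879762. The proximal promoter lay in another, of 9.057 kb, at chr21:34883987-34893043. Etoposide had the longest stretch of a single list, 64.4 kb at chr21:34866725-34931123, and it contains both. The lncRNA RUNX1-AS1 overlaps the left end of that stretch, and over its whole length (chr21:34836313-34885052) 2 etoposide, 9 genistein, 3 mitoxantrone, 8 p-benzoquinone and 5 DMSO regions fell in it, which were also counted for RUNX1.

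The proximal start cuts the gene into a part downstream of it, 100.9 kb long and transcribed from both promoters, and a part upstream of it, 160.6 kb long and transcribed from the distal promoter alone. Etoposide had 8 regions downstream and 5 upstream, a density ratio of 2.55 (0.735 to 9.89). The numbers were 14 and 20 with genistein (1.11, 0.521 to 2.32), 9 and 10 with mitoxantrone (1.43, 0.515 to 3.92), 19 and 34 with p-benzoquinone (0.889, 0.479 to 1.60) and 12 and 23 with DMSO (0.830, 0.377 to 1.74). Every interval held 1, so neither part was denser beyond counting error in any list. This cut was chosen after the data were seen.

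In ETV6 the 10 equal stretches of the body held 10 to 24 of 162 regions, against 16.2 if even, and the longest stretch free of all lists was 9.14 kb at chr12:11880801-11889941. Mitoxantrone left its longest ETV6 stretch, 48.4 kb, at the 3′ end. RUNX1T1 had 4 to 15 of 97 regions in each such stretch and a longest free stretch of 9.56 kb. CBFB had 1 to 4 of 28 regions in each and a longest free stretch of 11.2 kb at chr16:67067885-67079055. No such stretch of any gene was empty over all lists.

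**Figure D4:**
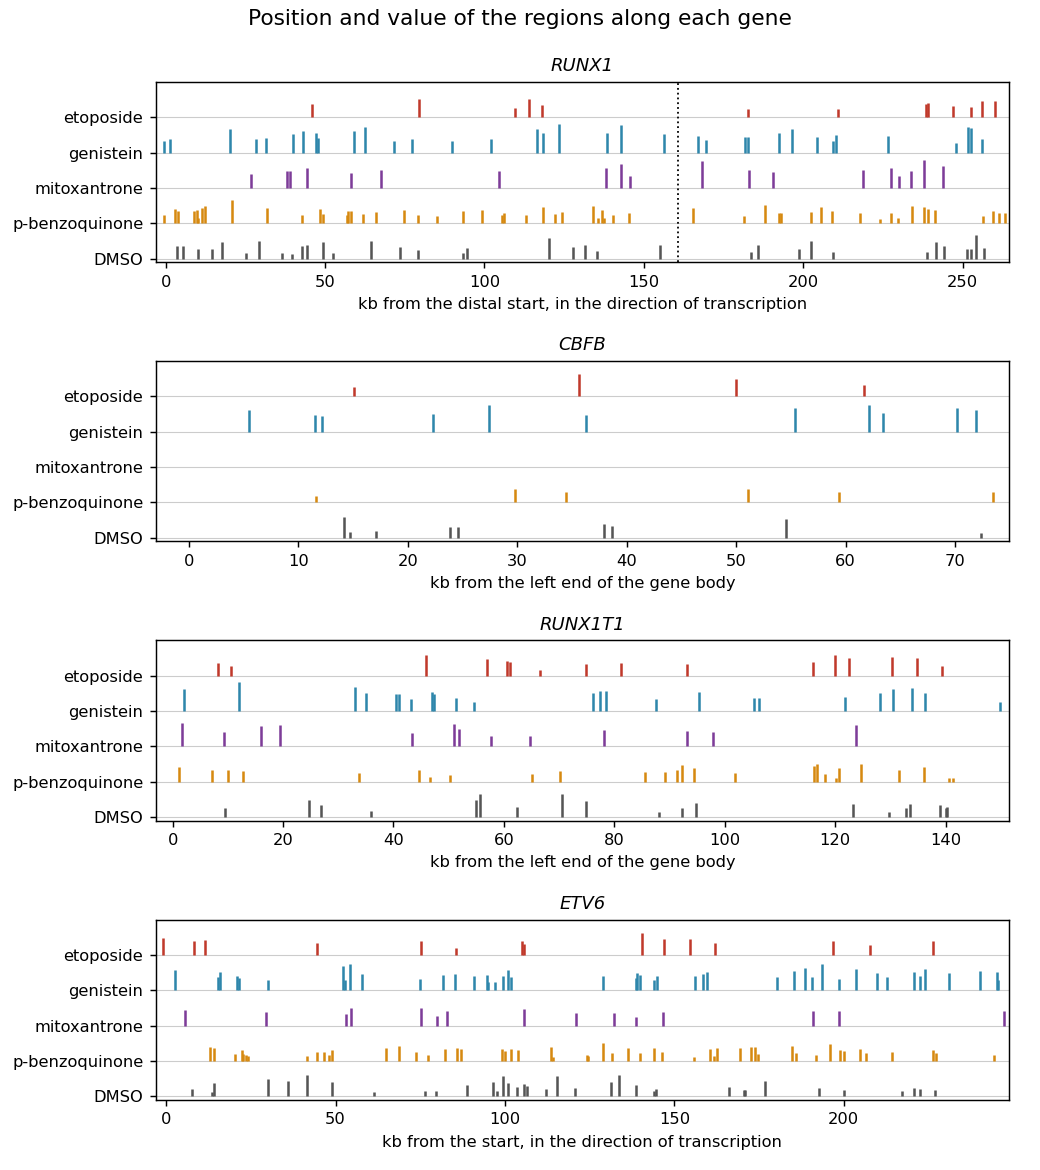
Position of every CCR along RUNX1, CBFB, RUNX1T1 and ETV6 in kb, 1 row per list, with the height of each tick growing with the log2 of the region's value. RUNX1 and ETV6 run in the direction of transcription and the others from the left end. The dotted line marks the proximal RUNX1 start, around which 9.057 kb hold no region of any list, and the mitoxantrone row of CBFB is empty.

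The value the authors gave each region has no stated unit, and lists differ in it, so it was read within a list only. In RUNX1 the median value was 7.80 with etoposide, 13.2 with genistein, 15.9 with mitoxantrone, 5.79 with p-benzoquinone and 6.01 with DMSO. The medians of the whole lists were 7.79 etoposide, 12.9 genistein, 13.3 mitoxantrone, 4.83 p-benzoquinone and 6.24 DMSO, so RUNX1 regions were of ordinary height. ETV6 had medians of 9.16 with etoposide, 10.5 with genistein, 9.72 with mitoxantrone, 5.06 with p-benzoquinone and 3.91 with DMSO. The DMSO regions of ETV6 were thus low for their list, as were the genistein and mitoxantrone ones.

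RUNX1T1 had medians of 8.48 with etoposide, 15.9 with genistein, 13.9 with mitoxantrone, 6.02 with p-benzoquinone and 6.76 with DMSO. CBFB had medians of 11.4 with etoposide, 29.8 with genistein, 5.43 with p-benzoquinone and 5.79 with DMSO. Its 11 genistein regions, at a relative density of 0.964, had values from 11.9 to 68.5, against a list median of 12.9.

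The highest RUNX1 regions lay at a different place in each list. They were chr21:34935218-34935386 with etoposide (18.3), chr21:34925872-34926072 with genistein (84.4), chr21:34811150-34811562 with mitoxantrone (74.2), chr21:35028361-35028677 with p-benzoquinone (36.97) and chr21:34795043-34795180 with DMSO (39.9). Of these, the mitoxantrone region alone overlapped a region of another list, the p-benzoquinone list. The highest ETV6 regions were chr12:11790097-11790316 with etoposide (29.6), chr12:11843193-11843576 with genistein (64.1), chr12:11724845-11725050 with mitoxantrone (17.2), chr12:11778459-11778594 with p-benzoquinone (15.5) and, with the same value (29.8) in the DMSO list, chr12:11691021-11691211 and chr12:11783132-11783319. The ETV6 mitoxantrone region overlapped an etoposide region, the p-benzoquinone region a genistein region and the first DMSO region a p-benzoquinone region, while the others overlapped none. The highest values in RUNX1T1 were 26.8 with etoposide, 99 with genistein, 40.2 with mitoxantrone, 16.4 with p-benzoquinone and 37.9 with DMSO. In CBFB they were 31.9 with etoposide, 68.5 with genistein, 8.45 with p-benzoquinone and 24.7 with DMSO. None of the highest RUNX1T1 and CBFB regions overlapped a region of another list.

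The mitoxantrone list alone carries an input signal for each region. Its median was 0.47 in the 19 RUNX1 regions, 0.47 in the 13 RUNX1T1 regions and 0.23 in the 15 ETV6 regions, against 0.23 over the whole list. The input was 0 in 1 RUNX1, 2 RUNX1T1 and 5 ETV6 regions. The median input of RUNX1 and RUNX1T1 regions was thus above the list median, but 0.23 and 0.47 are neighbouring steps of the input values. The mean input was 0.743 in RUNX1, 0.524 in RUNX1T1 and 0.249 in ETV6 regions, against 0.453 over the list. The part of the input in the CCR numbers was not tested.

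**Figure D5:**
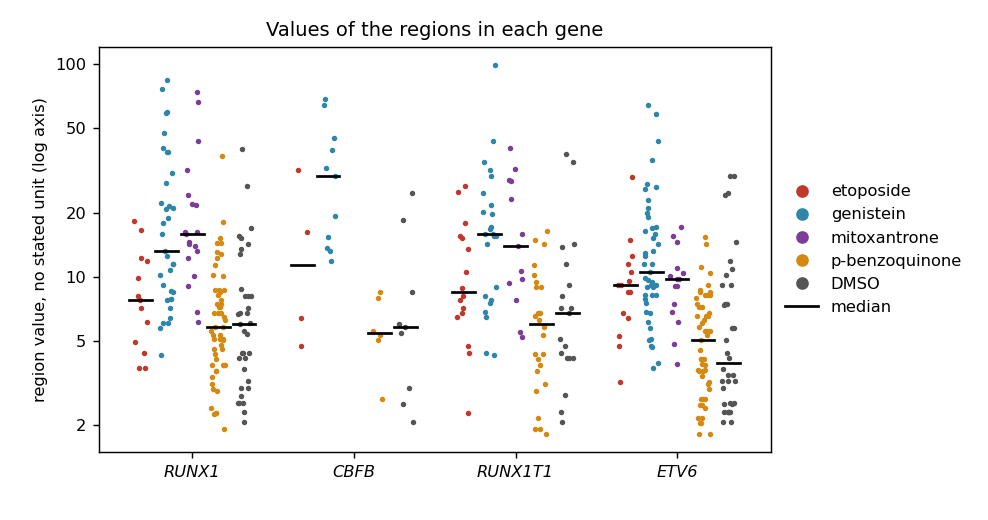
Value of every CCR in each gene, 1 point per region on a log axis, by list, with a bar at the median. The value has no stated unit and is comparable within a list only; the highest points are genistein regions of RUNX1T1 (99) and RUNX1 (84.4), and the median of the 36 ETV6 regions with DMSO (3.91) is below the median of that list (6.24).

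Most regions belonged to 1 list. After merging of overlapping regions over the 5 lists, RUNX1 had 128 places, of which 103 came from 1 list, 21 from 2 and 4 from 3. ETV6 had 140 places, 119 from 1 list, 19 from 2 and 2 from 3. RUNX1T1 had 93 places, 88 from 1 list and 5 from 2, and CBFB had 29, 28 from 1 list and 1 from 2. No place was found in 4 or 5 lists.

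The 6 places in 3 lists lay in RUNX1 and ETV6. In RUNX1 they were chr21:34796390-34796655 with values of 4.92 etoposide, 47.4 genistein and 4.39 DMSO, chr21:34809968-34810518 with 9.84 etoposide, 8.68 p-benzoquinone and 3.01 DMSO, chr21:34930732-34931295 with 7.12 etoposide, 22.2 genistein and 13.0 p-benzoquinone, and chr21:35006146-35006569 with 30.8 genistein, 3.86 p-benzoquinone and 7.14 DMSO. The first and second of these lie in the last 10% of the gene. Places were chained from overlaps of at least 1 base, so the 3 lists of a place need not share a base. In the second place the p-benzoquinone region ended at 34810227, before the DMSO region began at 34810359. In the third the genistein region ended at 34930883, before the etoposide region began at 34931124. The ETV6 places were chr12:11755100-11755580 with 5.25 etoposide, 14.6 mitoxantrone and 7.39 DMSO, and chr12:11788352-11788704 with 6.8 and 14.2 genistein, 3.88 mitoxantrone and 5.74 DMSO. In the latter the genistein region of value 6.8 overlapped both the mitoxantrone and the DMSO region, and that of 14.2 the DMSO region alone. None of the 6 places was the highest region of its gene in any list.

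The share of a list's regions in the 4 genes that overlapped a region of any other list was 27.1% with etoposide, 21.7% with genistein, 29.8% with mitoxantrone, 22.9% with p-benzoquinone and 27.3% with DMSO. Over all protein-coding genes it was 28.2% with etoposide, 21.0% with genistein, 25.3% with mitoxantrone, 21.3% with p-benzoquinone and 25.0% with DMSO, so the genes shared regions about as often as genes in general. The numbers by gene are given without a test. In RUNX1, 5 of 13 etoposide, 10 of 35 genistein, 8 of 19 mitoxantrone, 18 of 55 p-benzoquinone and 13 of 35 DMSO regions were shared. In ETV6, 5 of 15 etoposide, 12 of 45 genistein, 5 of 15 mitoxantrone, 11 of 53 p-benzoquinone and 12 of 36 DMSO regions were. In CBFB, 1 of 11 genistein and 1 of 6 p-benzoquinone regions were, and 0 of 4 etoposide and 0 of 9 DMSO regions. In RUNX1T1, 3 of 16 etoposide, 2 of 24 genistein, 1 of 13 mitoxantrone, 2 of 26 p-benzoquinone and 2 of 19 DMSO regions were.

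Other genes had nearly the same pattern of relative density over the 5 lists. Likeness was the largest difference in log2 relative density over the 5 lists, smallest first, among 6392 genes. Nearest to RUNX1 were OSBPL5 (0.12), CIB4 (0.12) and DUS4L-BCAP29 (0.14). Nearest to RUNX1T1 were KCNMB2 (0.14), RASGRP3 (0.15) and SHISA9 (0.15). Nearest to ETV6 were BIN3 (0.078), ADGRD1 (0.10) and POLR1D (0.10). CBFB, at 0 with mitoxantrone, could not be ranked. Several of these genes held few CCRs, such as BIN3 with 3 etoposide and 11 p-benzoquinone regions.

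The relatives and cofactors of core binding factor were described for comparison, as a list of 20 genes that holds the other RUNX genes, the other members of the RUNX1T1 family, the ETV6 relative ETV7 and the corepressors, acetyltransferases and other proteins that act with them. Their median relative density was 1.10 with etoposide, 0.897 with genistein, 0.914 with mitoxantrone, 1.41 with p-benzoquinone and 1.09 with DMSO. With p-benzoquinone 4 of 14 genes with enough CCRs were at least 1.5-fold above DMSO and 0 were below, beside 22.4% and 12.5% of all genes. With etoposide 3 of 13 were above and 2 below, with genistein 2 of 15 were above and 3 below, and with mitoxantrone 2 of 13 were above and 5 below. Over all genes 10.5% were above and 22% below with etoposide, 15.9% above and 17% below with genistein, and 11.7% above and 24.7% below with mitoxantrone. The densest by the mean over the 5 lists were TLE3, a Groucho-type corepressor, RUNX3, the RUNX gene of T cells and epithelia, and PRMT1, an arginine methyltransferase. RUNX3 held 28 CCRs with p-benzoquinone and 14 with DMSO, relative densities of 3.09 and 1.79, and TLE3 held 18 and 10, relative densities of 2.56 and 1.65. PRMT1 held only 1 to 3 regions per list, in a window of 16.3 kb.

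The 22 fusion partners of RUNX1 and ETV6 had a median relative density of 0.998 with etoposide, 1.11 with genistein, 1.02 with mitoxantrone, 1.15 with p-benzoquinone and 0.994 with DMSO. Past 1.5-fold of DMSO were 1 above and 1 below of 12 with etoposide, 1 above and 0 below of 14 with genistein, 0 above and 1 below of 11 with mitoxantrone, and 3 above and 1 below of 13 with p-benzoquinone. Those counts stand beside the shares of all genes just given (10.5% above and 22% below with etoposide, 15.9% and 17% with genistein, 11.7% and 24.7% with mitoxantrone, 22.4% and 12.5% with p-benzoquinone). The densest were ACSL6, an acyl-CoA synthetase joined to ETV6 in myeloid disease, with 19 p-benzoquinone and 6 DMSO regions, and the receptor kinases PDGFRB, with 16 and 7, and NTRK3, with 101 and 74. The 20 haematopoietic targets of RUNX1 held few CCRs, and 2 to 5 of them had enough for a ratio. Their median relative density was 1.18 with etoposide, 1.03 with genistein, 0.977 with mitoxantrone, 1.19 with p-benzoquinone and 1.26 with DMSO, and the densest were the repressor GFI1, the stem cell surface protein CD34 and the myosin light chain MYL9. CD34 held 13 CCRs with p-benzoquinone and 7 with DMSO. GFI1 held 2 to 5 regions per list in a window of 17.9 kb, and MYL9 1 to 3 in 13.9 kb, so their rank rests on few regions. Of these targets 4 of 5 were above 1.5-fold with p-benzoquinone, 1 of 2 with etoposide, 1 of 3 with genistein and 1 of 2 with mitoxantrone, and 1 was below, with etoposide. Over all genes 22.4% were above with p-benzoquinone, 10.5% with etoposide, 15.9% with genistein and 11.7% with mitoxantrone, and with 2 to 5 genes nothing was read from the difference.

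MYH11 itself was not measured, and other contractile genes of smooth muscle were described for comparison. They were chosen by function and not by position, so they do not stand in for the MYH11 locus. The 12 genes had a median relative density of 1.19 with etoposide, 1.07 with genistein, 0.762 with mitoxantrone, 1.27 with p-benzoquinone and 0.675 with DMSO. None was 1.5-fold above DMSO with any poison, among 4 to 6 genes with enough CCRs, while 1 was below with etoposide, 1 with genistein, 2 with mitoxantrone and 0 with p-benzoquinone. Over all genes 10.5% to 22.4% were above and 12.5% to 24.7% below, depending on the poison, so 4 to 6 genes give few calls in any case. The densest were ACTG2, an enteric smooth muscle actin, with 9 p-benzoquinone regions and 1 DMSO region, CNN1, calponin, with 5 and 0, and CALD1, caldesmon, with 55 and 39.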

How the data were processed

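TOP2A was immunocaptured from K562 cells and the bound DNA sequenced, per the labels' protocols. Reads were handled with Bowtie2 2.1.0 and SAMtools 0.1.19 on hg38, per the submitters' processing notes. Which program called the regions, and how deep each library was, is not given in the sources used here. For each treatment the authors deposited 1 union list, with a value per region whose unit is not stated (a score in DMSO, etoposide and p-benzoquinone, where joined regions carry several, and a signal in genistein and mitoxantrone). The deposited mitoxantrone list also has an input signal, a log2 value and a p-value, of which the input alone was used. Columns left unused for want of a sample numbered 0. Lists were tied to amplified libraries by the labels, and the mitoxantrone list by its treatment alone; unamplified libraries were not analysed here.

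The genes and comparison lists were chosen with earlier results of these data known. Regions on chromosomes 1 to 22, X and Y were kept and overlapping entries joined. Gene bodies were taken from RefSeq (GRCh38.p14), whose table gives neither exons nor strand; starts and strands came from the RefSeq promoter table, which holds RUNX1 and ETV6 and not the other 3 genes. A gene was measured where at least 50% of its window lay in 100 kb bins holding a region of any list (2763 Mb). Densities have exact Poisson intervals and ratios exact conditional binomial (Clopper-Pearson) intervals, at 95%. With 1 list per treatment no p-value was computed. Named were all 5 genes, the highest region per gene and list, places in 3 or more lists, the 3 genes of most like pattern, and the 3 densest genes per comparison list. Alternatives covered window, value minimum, overlap, scaling, flanks, count minimum and fold. Counting in windows, fold calls and interval coverage were tested on simulated data, and the value-step classes were not. Software was Python 3.11.15, pandas 2.3.3, numpy 2.4.6, matplotlib 3.10.9 and scipy 1.17.1.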

Additional observations from a re-analysis of the deposited data

How the results depend on the processing

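No paired analysis was possible because each treatment is 1 pooled list whose columns carry no replicate number, and for the same reason no library could be left out in turn. Of 206 values recomputed under alternatives, 190 moved by less than their interval, or by at most 1.5 times for a count. Some of these could not move, since leaving out MYH11, with 0 regions, gave the same ratio again. The intervals were wide, so a value inside its interval could still cross 1, as several below did. RUNX1 with etoposide, lower past 1.5-fold, was below 1 throughout, and ETV6 with mitoxantrone was 1.91 in the coarse value steps, where its direction turned. Ratios near 1 crossed it with values of 4 or more for ETV6 with etoposide (1.10) and genistein (1.22) and for RUNX1T1 with mitoxantrone (0.853). Covered bases did so for RUNX1T1 with mitoxantrone (0.859) and CBFB with genistein (1.17), and other windows for CBFB with etoposide (1.02) and genistein (1.03) and for RUNX1T1 with genistein (1.02). The number of genes past 1.5-fold became 2 with etoposide in the gene body alone (ETV6 at 0.660) and 0 at 2-fold. With mitoxantrone it became 0 for values of 4 or more, 2 at a count minimum of 5 (CBFB at 0 regions) and 0 at 2-fold. With p-benzoquinone it became 2 for values of 4 or more (RUNX1 at 1.51 and ETV6 at 1.62), 1 by covered bases (RUNX1 at 1.67) and 1 at a count minimum of 5 (CBFB at 0.575). Genes above their flanks became 1 with etoposide at 1 Mb, 1 with mitoxantrone at 200 kb and 1 at 1 Mb, and 1 with DMSO at 200 kb, 2 with p-benzoquinone at 200 kb and 3 with DMSO for values of 4 or more. Shared regions became 13.9% with genistein at 50% overlap and 13.3% for values of 4 or more, and 14.3% with p-benzoquinone at 50% overlap. The value steps were an alternative chosen after seeing the data. In them the ratio over all the genes with etoposide became 0.454 in the fine and 1.00 in the coarse steps. With p-benzoquinone it became 1.03 (0.743 to 1.45) in the fine steps, against 1.22 in the whole lists. In the coarse steps it became 0.966 (0.614 to 1.57) with genistein and 0.893 (0.521 to 1.55) with mitoxantrone. Without each gene in turn the whole-list ratio ranged over 0.679 to 0.929 with etoposide, 0.830 to 0.933 with genistein, 0.650 to 0.798 with mitoxantrone and 1.15 to 1.28 with p-benzoquinone. The cause of these changes was not tested. With 4 to 55 regions per gene and list, no ratio of a gene with regions in both lists could be told from 1.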
